A study of Mus musculus with 20 samples.

Results

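Voltage-gated sodium and calcium channels are pores in the cell membrane that open when it depolarises, and 40 genes of their subunits were followed here in the mouse hypothalamus. The genes were taken by symbol, as every protein-coding gene of the GRCm38 GENCODE annotation whose name begins with Scn followed by a number and a or b, or with Cacna, Cacnb or Cacng, and they are 40 of the 55471 rows of the count table. They comprise 10 sodium alpha subunits, 4 sodium beta subunits, 7 calcium alpha1 subunits of the Cav1 and Cav2 families, 3 calcium alpha1 subunits of the Cav3 family, 4 alpha2delta subunits, 4 calcium beta subunits and 8 gamma subunits. All 40 had counts, and 36 passed the filter on low counts and were tested. Scn4a, Scn10a, Cacng1 and Cacng6 did not pass it.

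RNA was sequenced from hypothalamus slices of wild-type C57BL/6 mice. There were 7 libraries from mice fed a risperidone diet ad libitum (RISP_Ad.lib), 6 from mice given that diet by pair-feeding (RISP_PF) and 7 from mice on control diet ad libitum (CON_Ad.lib), and the risperidone diet lasted 4 weeks. Risperidone is an antipsychotic drug that blocks dopamine D2 and serotonin receptors, and pair-feeding restricts food to the amount that another group eats. Pair-fed control mice are not among the groups, so diet and feeding both differ between pair-fed risperidone and control. The labels say that body weight was not different from mice on control diet, without settling for which feeding condition, and do not state whether each library came from its own mouse. The p-values therefore measure only how much these samples vary, which may be technical. Because whole slices were measured, fewer cells of a type and less RNA per cell cannot be told apart.

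The alpha subunit of a sodium channel and the alpha1 subunit of a calcium channel each form the whole pore and its voltage sensors. Sodium channels carry the upstroke of the action potential, whereas calcium channels let in the calcium that triggers transmitter and hormone release, shapes firing and reaches the nucleus as a signal. Beta, alpha2delta and gamma subunits are accessory proteins that bring the pore to the membrane, set its gating or, for most gamma subunits of the brain, serve AMPA-type glutamate receptors instead.

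The upstream sequences of 4 of these genes are shown because the median number of CG dinucleotides there differed between the genes with very low counts and the others. Some abundant genes also held few, as given below. Each is the 250 bases before the RefSeq start on GRCm38.p6, written 5′ to 3′ on the strand of the gene and lying outside the gene as GENCODE annotates it, with every CG in capitals. The CG motif reads the same on both strands. Cacna1b (chr2:24763153-24763402, minus strand) and Cacna2d1 (chr5:15934441-15934690, plus strand) are abundant here, with mean levels of 19.1 and 17.9 RPKM (reads per kilobase of exon, scaled to library size) in control libraries. Scn2a (chr2:65620519-65620768, plus strand) was at 15.2 RPKM, and Scn11a (chr9:119825457-119825706, minus strand) at 0.220 RPKM.
Cacna1b: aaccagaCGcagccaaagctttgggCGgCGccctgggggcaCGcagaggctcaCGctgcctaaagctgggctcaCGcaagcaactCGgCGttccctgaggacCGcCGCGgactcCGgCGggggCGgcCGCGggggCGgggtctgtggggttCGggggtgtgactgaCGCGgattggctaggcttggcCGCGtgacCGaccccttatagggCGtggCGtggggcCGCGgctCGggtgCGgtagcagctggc
Cacna2d1: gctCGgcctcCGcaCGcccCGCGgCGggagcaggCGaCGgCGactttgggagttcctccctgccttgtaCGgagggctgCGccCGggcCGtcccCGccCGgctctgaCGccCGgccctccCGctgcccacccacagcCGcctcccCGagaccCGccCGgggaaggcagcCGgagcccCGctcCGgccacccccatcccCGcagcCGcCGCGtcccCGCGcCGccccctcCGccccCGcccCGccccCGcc
Scn2a: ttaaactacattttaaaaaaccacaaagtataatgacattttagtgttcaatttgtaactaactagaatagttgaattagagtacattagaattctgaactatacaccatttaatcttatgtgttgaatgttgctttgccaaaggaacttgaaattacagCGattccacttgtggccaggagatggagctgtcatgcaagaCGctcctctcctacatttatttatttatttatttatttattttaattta
Scn11a: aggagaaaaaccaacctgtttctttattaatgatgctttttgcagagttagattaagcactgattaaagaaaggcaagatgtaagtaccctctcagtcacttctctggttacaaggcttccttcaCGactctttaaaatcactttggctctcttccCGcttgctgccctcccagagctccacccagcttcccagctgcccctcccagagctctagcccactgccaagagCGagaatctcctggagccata

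The Cacna1b window held 29 CG dinucleotides at a GC content of 72.0%, and the Cacna2d1 window 36 at 82.4%. Scn11a had 3 CG dinucleotides at 48.0% GC. The Scn2a window shown had 2 at 29.6% GC, while the window at another RefSeq start of Scn2a, not printed, had 9 at 53.2% GC. Of the 40 genes, 30 matched a window in the RefSeq table, and where a gene had several windows the one with the most CG dinucleotides was taken, which for Scn2a is the one not printed. The 6 matched genes under 1 RPKM in control libraries held 3 to 9 of them, with a median of 4.5, and the 24 matched genes at 1 RPKM or more held 0 to 50, with a median of 19.5. More than 9 were found in 15 of these 24 (62.5%), against 40.2% of 27025 RefSeq genes with a window. The limit of 9 is also the highest count among the 6, so it could not set them apart independently. Some windows lie inside the gene as GENCODE annotates it. Among the 24 these include Cacna1e, Cacng3 and Cacng8, with 6, 8 and 0 CG dinucleotides. Among the 6 they include Cacng6, Scn4a and Scn10a, with 5, 4 and 8. The other 9 of the 24 included the abundant Cacng7, with 9 at 50.8 RPKM, and Scn2b, with 1 at 50.1 RPKM. Each of the 6 genes under 1 RPKM had only 1 window, whereas several of the 24 had more. Taking the highest count therefore favours the 24. The window is a description of the sequence and was not tested against the level.

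The sums of counts were similar between libraries, except in library 3 of ad libitum risperidone. Libraries 1 and 3 of that group stood apart in ways that bear on the channel genes. Ad libitum risperidone library 3 held 9748005 counts and the 19 others 17316043 to 18606543, and in library 3 22.4% of the counts fell in genes of ribosomal RNA or resembling it, against 2.26% to 5.19% elsewhere. In library 1 of that group, 8 markers of cortex, hippocampus and amygdala summed to 3929 CPM (counts scaled to library size), against 548.8 to 875.1 CPM in the 18 libraries other than 1 and 3, and hypothalamus markers summed to 515.2 CPM, against 854.4 to 1536 CPM. Of the 10 hypothalamus markers Kiss1 was at 0 in every library. The counts of channel genes and the class sums are also given without libraries 1 and 3. Of the 18 libraries kept there, ad libitum risperidone library 2 was nearest to library 1 in both sums, at 875.1 and 854.4 CPM. The next highest cortex, hippocampus and amygdala sum was 715.3 CPM, in control library 6. The next lowest hypothalamus sum was 862.6 CPM, in pair-fed risperidone library 3.

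Levels between genes are compared as RPKM, which divides a gene's CPM by the length of its annotated exons. The order of some genes within a class depends on this choice of length, as given at the end. Within each class a few genes held most of the summed level, and 8 of the 40 genes were under 1 RPKM in control libraries.

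**Figure D1:**
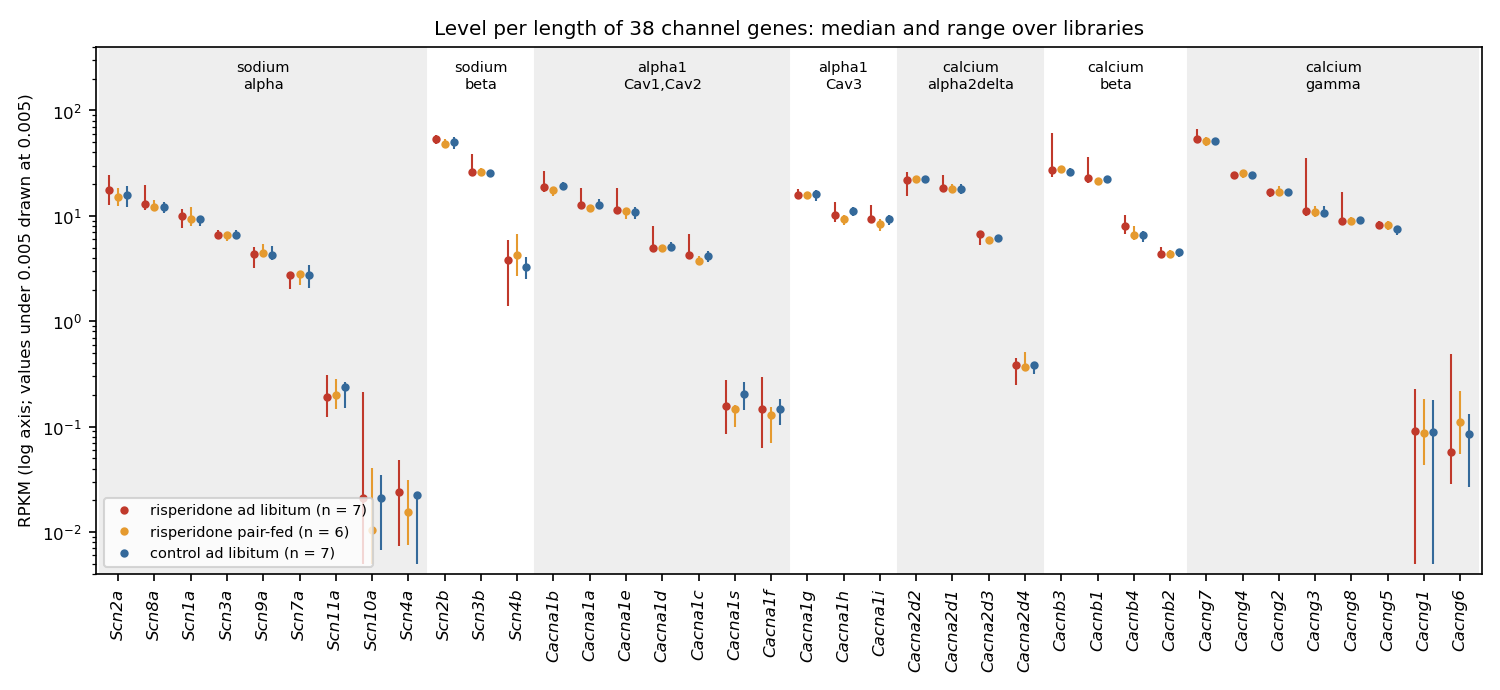
The plot gives the level per length (RPKM, log axis) of 38 channel genes, ordered by class and by control mean, with the median as a point and the range over libraries as a line for ad libitum risperidone (n = 7), pair-fed risperidone (n = 6) and control (n = 7). The ranges of the groups overlap for every gene, and 8 genes lie under 1 RPKM in control libraries.

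Among the sodium alpha subunits, Scn2a and Scn8a, which drive action potentials in axons of excitatory and many other neurons, had the highest levels. Scn2a was at 17.9 ± 3.94 RPKM in ad libitum risperidone, 15.3 ± 2.42 RPKM in pair-fed risperidone and 15.2 ± 2.61 RPKM in control libraries (SD, n = 7, 6 and 7). Scn8a was at 13.9 ± 2.84, 12.4 ± 0.972 and 12.1 ± 1.09 RPKM in the same order of groups. Their control ranges overlapped, although Scn2a was above Scn8a in each of the 7 control libraries. Scn1a, the main sodium channel of fast-spiking inhibitory neurons, followed at 9.72 ± 1.30, 9.86 ± 1.63 and 9.13 ± 0.616 RPKM, and Scn3a, best known from the developing brain, at 6.71 ± 0.451, 6.54 ± 0.491 and 6.58 ± 0.419 RPKM.

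Scn9a, better known from sensory neurons, was measured at 4.40 ± 0.454 RPKM in control libraries. Scn7a, which codes for the sodium-sensing channel Nax of glia around the ventricles, was at 2.82 ± 0.438 RPKM in control. Scn11a and Scn10a, channels of pain-sensing neurons, were at 0.220 ± 0.0469 and 0.0207 ± 0.00905 RPKM, and Scn4a, the channel of skeletal muscle, at 0.0154 ± 0.00976 RPKM. Scn4a had 0 to 3 reads per control library and Scn10a 1 to 5. Scn1a, Scn2a, Scn3a, Scn7a and Scn9a lie together on chromosome 2, and the low Scn10a and Scn11a together on chromosome 9. The summed sodium alpha level was 59.9 ± 7.33 RPKM in ad libitum risperidone, 55.5 ± 4.90 RPKM in pair-fed risperidone and 54.8 ± 4.57 RPKM in control libraries, and without libraries 1 and 3 it was 56.3 ± 4.85 RPKM in ad libitum risperidone (n = 5). Scn2a made up 27.6% of the control sum.

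The sodium beta subunits are also cell adhesion molecules. Scn2b, which is linked to the pore by a disulfide bond, was at 53.1 ± 3.07 RPKM in ad libitum risperidone, 48.5 ± 3.08 RPKM in pair-fed risperidone and 50.1 ± 3.89 RPKM in control libraries. Scn3b stood at 25.7 ± 1.18 RPKM in control and Scn4b, known for the resurgent sodium current of fast-firing neurons, at 3.27 ± 0.497 RPKM. The class summed to 147.6 ± 16.6 RPKM in ad libitum risperidone, 135.6 ± 11.4 RPKM in pair-fed risperidone and 130.9 ± 5.86 RPKM in control libraries. Without libraries 1 and 3 it was 143.8 ± 6.67 RPKM in ad libitum risperidone.

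Of the Cav1 and Cav2 pores, the presynaptic Cav2 channels were highest. Cacna1b, the N-type pore, was at 19.8 ± 3.37 RPKM in ad libitum risperidone, 17.4 ± 1.03 RPKM in pair-fed risperidone and 19.1 ± 1.46 RPKM in control libraries, and held 36.2% of the control sum of its class. Cacna1a, the P/Q-type pore, was at 13.5 ± 2.28, 11.7 ± 0.484 and 12.9 ± 0.992 RPKM, and Cacna1e, the R-type pore, at 13.1 ± 3.22, 10.8 ± 0.732 and 11.0 ± 0.941 RPKM. The control ranges of Cacna1a and Cacna1e overlapped. Cacna1d, an L-type pore that opens at low voltage and supports pacemaking, was at 5.55 ± 1.22, 4.99 ± 0.222 and 5.20 ± 0.365 RPKM, and Cacna1c, the other L-type pore of neurons, at 4.23 ± 0.363 RPKM in control. Cacna1s of skeletal muscle and Cacna1f of the retina were at 0.209 ± 0.0433 and 0.143 ± 0.0269 RPKM, with overlapping ranges. The class summed to 57.2 ± 10.8 RPKM in ad libitum risperidone, 48.9 ± 2.10 RPKM in pair-fed risperidone and 52.8 ± 3.89 RPKM in control libraries. Without libraries 1 and 3 the ad libitum risperidone sum was 51.12 ± 2.11 RPKM, under the control mean rather than over it.

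The 3 Cav3 pores carry T-type current, which opens near the resting potential and supports burst firing. Cacna1g was at 16.2 ± 1.20 RPKM in ad libitum risperidone, 15.7 ± 0.944 RPKM in pair-fed risperidone and 16.2 ± 1.39 RPKM in control libraries, with 44.6% of the control sum. Cacna1h was at 10.7 ± 1.81, 9.25 ± 0.763 and 10.9 ± 0.738 RPKM, and Cacna1i at 9.21 ± 0.831 RPKM in control, with ranges that overlapped those of Cacna1h. The class summed to 36.7 ± 3.83 RPKM in ad libitum risperidone, 33.4 ± 1.58 RPKM in pair-fed risperidone and 36.3 ± 2.62 RPKM in control libraries, and without libraries 1 and 3 to 35.03 ± 1.85 RPKM in ad libitum risperidone, again under the control mean.

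The alpha2delta subunits lie outside the membrane and promote trafficking of the pore, and those of Cacna2d1 and Cacna2d2 bind the drug gabapentin. Cacna2d2 was at 21.6 ± 3.22 RPKM in ad libitum risperidone, 22.5 ± 0.722 RPKM in pair-fed risperidone and 22.3 ± 0.927 RPKM in control libraries. Cacna2d1 was at 19.2 ± 2.42, 17.97 ± 1.497 and 17.9 ± 1.33 RPKM. Cacna2d3 and Cacna2d4 stood at 6.11 ± 0.221 and 0.367 ± 0.0370 RPKM in control. The class sum varied the least with the groups, at 47.6 ± 2.20 RPKM in ad libitum risperidone, 46.9 ± 2.15 RPKM in pair-fed risperidone and 46.7 ± 1.70 RPKM in control libraries, and was 47.3 ± 2.32 RPKM in ad libitum risperidone without libraries 1 and 3.

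The beta subunits bind the alpha1 pore inside the cell and are needed for its surface expression. Cacnb3 was at 31.8 ± 13.1 RPKM in ad libitum risperidone, 27.5 ± 0.950 RPKM in pair-fed risperidone and 26.2 ± 1.35 RPKM in control libraries. Cacnb1 was at 24.3 ± 5.27, 21.8 ± 0.866 and 22.7 ± 0.628 RPKM. Cacnb4, the gene mutated in lethargic mice, and Cacnb2 were at 6.56 ± 0.516 and 4.44 ± 0.203 RPKM in control. The class summed to 68.6 ± 19.3 RPKM in ad libitum risperidone, 60.5 ± 1.72 RPKM in pair-fed risperidone and 59.9 ± 2.10 RPKM in control libraries, and without libraries 1 and 3 to 61.8 ± 3.30 RPKM in ad libitum risperidone.

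Of the gamma subunits, those present here were the ones that traffic AMPA receptors. Cacng7 was at 55.6 ± 5.21 RPKM in ad libitum risperidone, 51.3 ± 4.04 RPKM in pair-fed risperidone and 50.8 ± 1.34 RPKM in control libraries, and Cacng4 at 24.5 ± 1.32, 25.2 ± 1.57 and 24.5 ± 0.307 RPKM. Cacng2, stargazin, followed at 16.7 ± 0.828 RPKM in control, Cacng3 at 10.9 ± 0.733, Cacng8 at 9.09 ± 0.255 and Cacng5 at 7.39 ± 0.610 RPKM. Cacng1, the subunit of the skeletal muscle calcium channel, and the related Cacng6 had at most 5 reads per control library. Cacng6, Cacng7 and Cacng8 lie side by side on chromosome 7, and Cacng1, Cacng4 and Cacng5 on chromosome 11. The class summed to 129.5 ± 16.4 RPKM in ad libitum risperidone, 121.9 ± 5.93 RPKM in pair-fed risperidone and 119.4 ± 2.27 RPKM in control libraries. Leaving out libraries 1 and 3 gave 122.5 ± 1.68 RPKM in ad libitum risperidone.

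**Figure D2:**
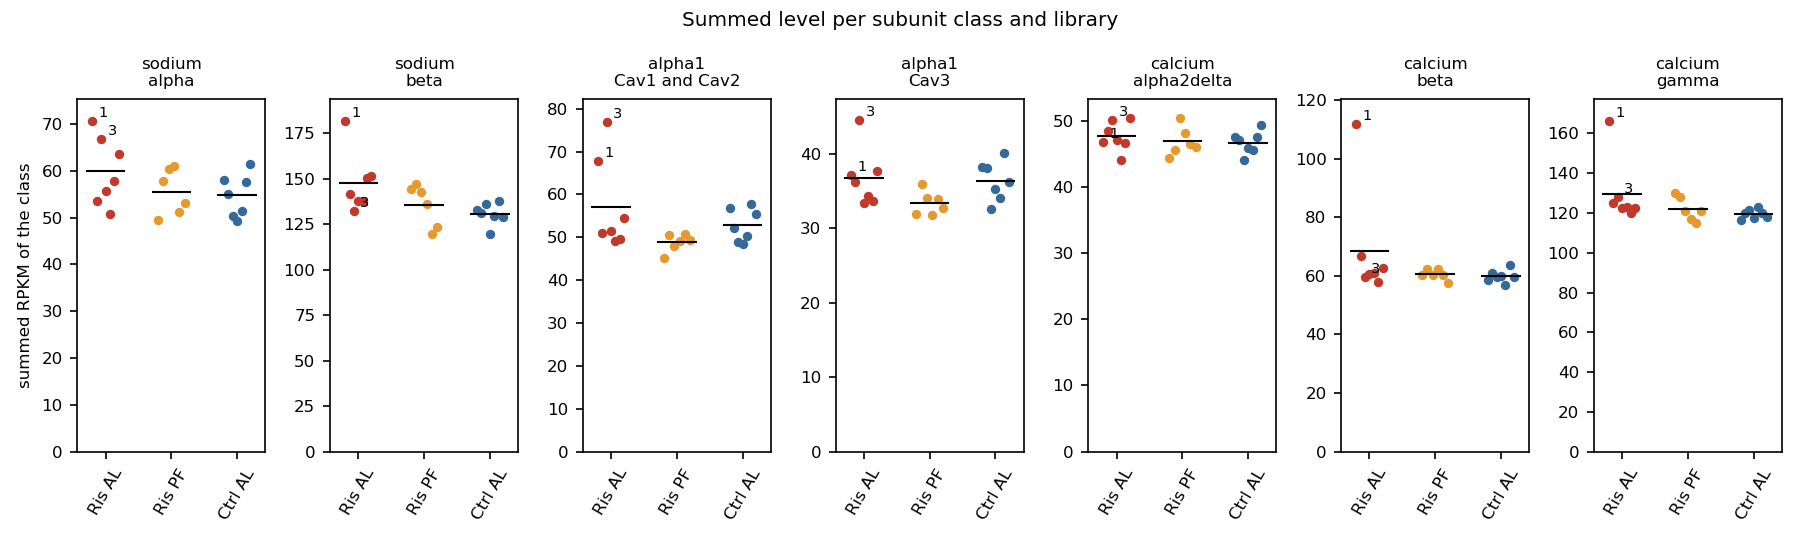
Each point is the summed RPKM of 1 subunit class in 1 library, by group (Ris AL, risperidone ad libitum, n = 7; Ris PF, risperidone pair-fed, n = 6; Ctrl AL, control ad libitum, n = 7), with the group mean as a line and ad libitum risperidone libraries 1 and 3 numbered. The calcium beta sum is 111.9 RPKM in library 1 and the Cav3 sum 44.45 RPKM in library 3, each above all other libraries.

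Risperidone ad libitum was set against control to ask what the diet changed with food free. With the quasi-likelihood test of edgeR, 0 of the 36 tested channel genes changed (adjusted p under 0.05, Benjamini-Hochberg), where 0.0615% of all 17893 genes did. At an unadjusted p under 0.05, 5 channel genes were higher (13.9%, against 7.14% of all genes) and 0 were lower (against 5.97%). DESeq2 called 1 channel gene where it called 0.615% of all genes, and limma-voom called 0. The groups overlapped for every channel gene, whereas 0.33% of all genes had groups that did not. The median log2 fold change over the 36 genes was 0.0809, against 0.00766 over all genes, and it was 0.00237 without libraries 1 and 3.

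Cacnb4, the beta subunit gene named above, had the smallest p. It ran from 60.2 over a median of 71.0 to 91.1 CPM in ad libitum risperidone libraries, against 50.5, 59.4 and 64.1 CPM in control libraries. In 6 of the 7 risperidone libraries it was above the highest control. The log2 fold change was 0.30 (SE 0.0811, adjusted p = 0.158, edgeR), and DESeq2, the tool that called it, gave 0.30 with an adjusted p of 0.0489. Over 30 other settings, DESeq2 included, the adjusted p lay between 0.0489 and 0.327. A non-coding gene, A430018G15Rik, overlaps 16.0% of the exon length of Cacnb4 on the opposite strand, and the strand setting of the counting is not given in the sources used here.

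Cacng5, an atypical member of the AMPA receptor group, ran from 29.4 over 31.6 to 34.2 CPM in ad libitum risperidone libraries, against 25.01, 29.0 and 30.7 CPM in control. Its log2 fold change was 0.15 (SE 0.0580, adjusted p = 0.288). Cacna1e and Cacng7 also had an unadjusted p under 0.05, with log2 fold changes of 0.25 and 0.13 (adjusted p = 0.318 and 0.314). Without libraries 1 and 3 both passed no such threshold, at 0.03 and 0.06 on the log2 scale (adjusted p = 0.881 and 0.596).

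On the lower side, the genes with the smallest p were Cacna1s at −0.24 (SE 0.195, adjusted p = 0.631), Scn11a at −0.21 (SE 0.182, adjusted p = 0.669) and Scn7a at −0.10 (SE 0.0964, adjusted p = 0.713) on the log2 scale. Cacna1s had 4 to 32 reads per ad libitum risperidone library and Scn11a 13 to 23, which limits what could be detected. The 95% interval of Scn7a, −0.30 to 0.10, and that of the other genes on this side included 0.

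**Figure D3:**
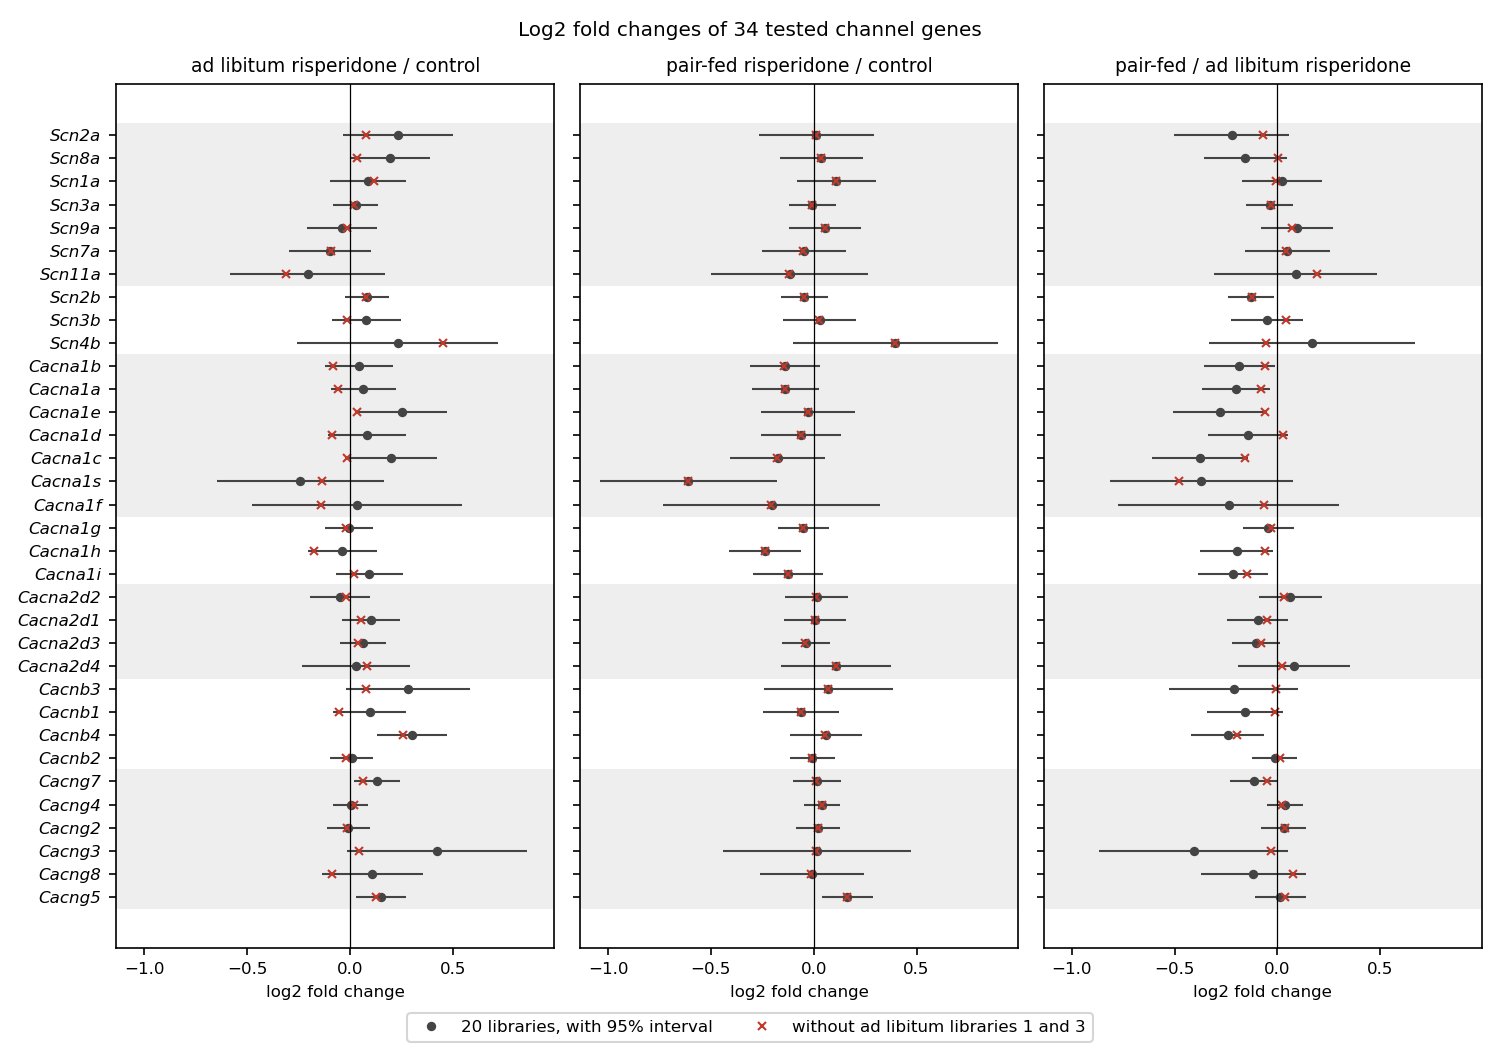
Log2 fold changes of 34 tested channel genes are drawn with 95% intervals for ad libitum risperidone over control, pair-fed risperidone over control and pair-fed over ad libitum risperidone, with crosses for the fit without ad libitum risperidone libraries 1 and 3. All 10 calcium alpha1 genes lie left of 0 in pair-fed risperidone over control, and in the outer panels many crosses lie nearer 0 than the points.

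Pair-fed risperidone was set against control to ask what the diet changed when intake was held down, and 0 of the 36 channel genes changed in edgeR's test, where 0.486% of all genes did. At an unadjusted p under 0.05, 1 gene was higher (2.78%, against 3.06% of all genes) and 2 were lower (5.56%, against 3.6%). Without ad libitum risperidone libraries 1 and 3, which belong to neither group, 2 were higher (5.56%, against 5.2% of all genes) and 6 were lower (16.7%, against 6.08%). Of those lower, 4 were Cav1 or Cav2 genes, namely Cacna1a at −0.14, Cacna1b at −0.14, Cacna1c at −0.18 and Cacna1s at −0.61 on the log2 scale (adjusted p = 0.185, 0.207, 0.129 and 0.165). DESeq2 and limma-voom called 0. The groups overlapped for every channel gene, against 1.2% of all genes with groups apart. The median log2 fold change was −0.01 over the channel genes and 0.00265 over all genes. Signs differed between classes. All 7 Cav1 and Cav2 genes and all 3 Cav3 genes had negative values, with a median of −0.14 over the 10 pores, whereas 5 of 6 gamma, 3 of 4 alpha2delta and 3 of 4 sodium beta genes had positive ones. Over all genes 51.5% were positive. The 10 values come from the same libraries and were not tested as a group.

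Cacna1h, the T-type pore with high sensitivity to nickel, had the smallest p after Cacna1s. It ran from 80.7 over 90.8 to 99.4 CPM in pair-fed risperidone libraries, against 98.1, 107.5 and 119.5 CPM in control libraries. The groups overlapped through 1 pair-fed library, which exceeded the lowest control libraries, and the other 5 were below every control. The log2 fold change was −0.24 (SE 0.0846, adjusted p = 0.468, edgeR). With only the 2 groups compared in the fit it was −0.24 with an adjusted p of 0.0272, where 1.4% of all genes were called, and without ad libitum risperidone libraries 1 and 3 it was −0.24 with an adjusted p of 0.0218, where 1.39% were called. In the fit without those 2 libraries, which belong to neither group, the SE was 0.0542. Over 30 other settings the adjusted p ran from 0.0218 to 0.797.

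Cacna1s, at low counts, ran from 0.648 over 0.959 to 1.06 CPM in pair-fed risperidone libraries (12 to 19 reads), against 0.947, 1.34 and 1.73 CPM in control libraries (18 to 31 reads). All but 1 of the control libraries were above every pair-fed library. Its log2 fold change was −0.61 (SE 0.207, adjusted p = 0.396). Markers of skeletal and cardiac muscle, the tissue this gene is known from, summed to 10.5 to 13.3 CPM in pair-fed risperidone and 10.1 to 11.8 CPM in control libraries. Of these markers, Ckm and Myh1 reached at most 0.324 and 0.115 CPM in pair-fed risperidone and 0.280 and 0.216 CPM in control libraries.

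On the upper side, Cacng5 ran from 28.4 over 31.6 to 34.6 CPM in pair-fed risperidone libraries, against 25.01, 29.0 and 30.7 CPM in control libraries, and the log2 fold change was 0.16 (SE 0.0598, adjusted p = 0.476). Scn4b spread widely, from 13.5 over 21.2 to 33.8 CPM in pair-fed libraries and from 12.5 over 16.4 to 20.3 CPM in control libraries. Its log2 fold change of 0.40 (SE 0.241, adjusted p = 0.869) had a 95% interval of −0.10 to 0.90.

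**Figure D4:**
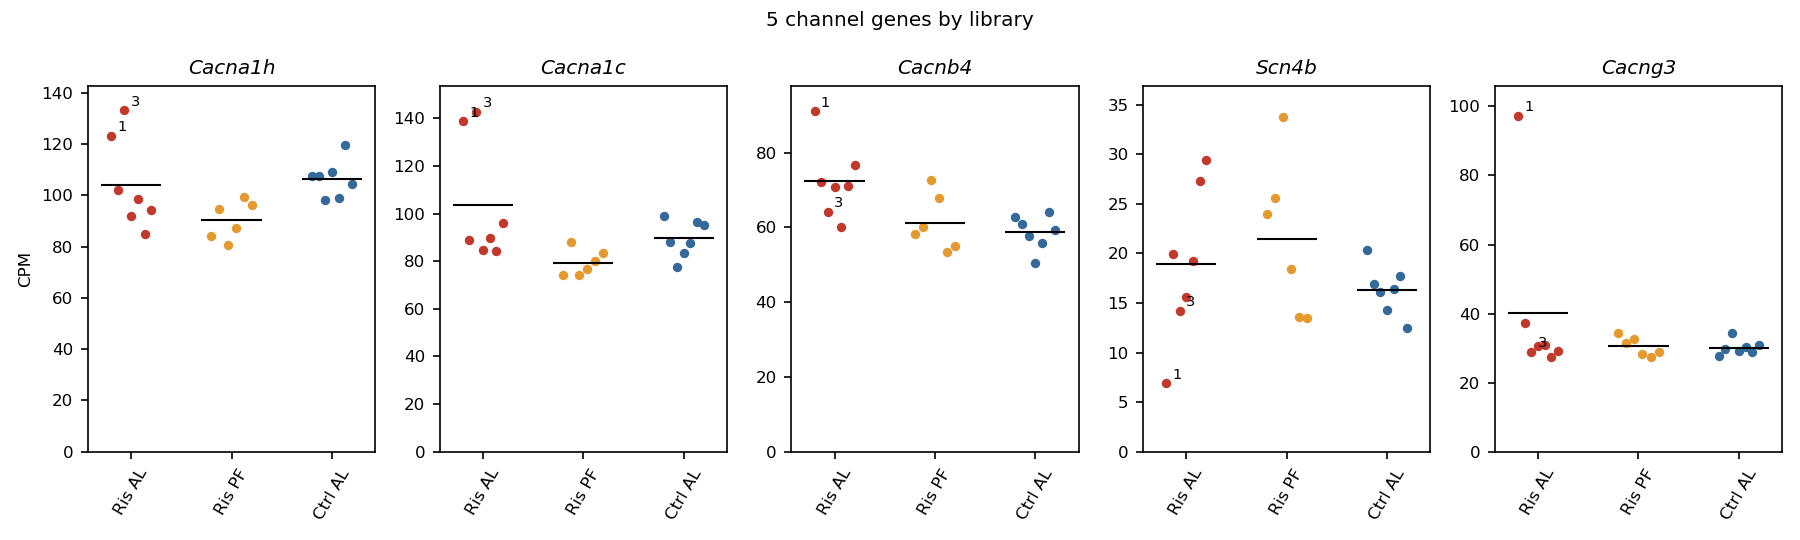
Points are CPM per library of 5 channel genes in risperidone ad libitum (Ris AL, n = 7), risperidone pair-fed (Ris PF, n = 6) and control (Ctrl AL, n = 7), with group means as lines and ad libitum risperidone libraries 1 and 3 numbered. Cacna1c reaches 142.8 CPM in library 3 and Cacng3 97.4 CPM in library 1. For both genes the pair-fed and control ranges overlap. For Cacna1c they are 74.2 to 88.0 CPM in pair-fed and 77.55 to 98.84 CPM in control libraries.

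The pair-fed and ad libitum groups, which share the risperidone diet and differ in feeding, were compared directly. Of the 36 channel genes 0 changed in edgeR's test, where 0.397% of all genes did, and DESeq2 and limma-voom called 0. At an unadjusted p under 0.05, 0 were higher (against 6.09% of all genes) and 9 were lower (25% of them, against 7.44%), and without ad libitum libraries 1 and 3 the lower ones were 5 (13.9%, against 5.28%). With all libraries the 9 included Cacna1a, Cacna1b, Cacna1c, Cacna1e, Cacna1h, Cacna1i, Cacnb4 and Scn2b. Without libraries 1 and 3 the 5 were Cacna1c, Cacna1i, Cacna1s, Cacnb4 and Scn2b. Cacna1a, Cacna1b, Cacna1e and Cacna1h were then no longer under 0.05. The groups overlapped for every channel gene, against 0.632% of all genes with groups apart. The median log2 fold change was −0.12 over the channel genes and −0.03 without libraries 1 and 3, against −0.00486 and 0.00107 over all genes. This comparison and the previous ones share libraries, so their values are not independent of each other.

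Cacna1c had the smallest p. It ran from 74.2 over 78.2 to 88.0 CPM in pair-fed risperidone libraries, against 84.3, 89.5 and 142.8 CPM in ad libitum risperidone libraries. The 2 highest ad libitum values were those of libraries 1 and 3, and 5 of the 6 pair-fed libraries were below every ad libitum library. Its log2 fold change was −0.38 (SE 0.112, adjusted p = 0.170), and −0.16 (SE 0.0581, adjusted p = 0.272) without libraries 1 and 3. Cacnb4 ran from 53.4 over 59.1 to 72.5 CPM in pair-fed libraries, against 60.2, 71.0 and 91.1 CPM in ad libitum libraries, and its log2 fold change was −0.24 (SE 0.0845, adjusted p = 0.227). Cacna1i ran from 70.6 over 82.6 to 92.6 CPM, against 86.7, 92.5 and 125.3 CPM, which gave −0.22 on the log2 scale (SE 0.0822, adjusted p = 0.270), or −0.15 without libraries 1 and 3. The positive genes with the smallest p were Scn9a at 0.09, Cacng4 at 0.04 and Cacna2d2 at 0.06 (adjusted p = 0.638, 0.725 and 0.737), each with a 95% interval that included 0.

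The 2 ad libitum risperidone libraries that stood apart did so in different channel genes. In library 1, 18 of the 36 genes were above all 18 libraries other than 1 and 3, against 22.4% of all genes, and 5 (13.9%) were below them, against 19.4%. All 4 calcium beta genes were among those above. Cacng3, an AMPA receptor subunit of cortex and hippocampus chosen here after its values were seen, was at 97.4 CPM in library 1, against 27.3 to 37.2 CPM in the 18 others, and Cacnb3 at 244.1 CPM, against 96.6 to 124.9 CPM. Lower than the 18 others were Scn4b at 6.95 CPM, against 12.5 to 33.8 CPM, and Cacna2d2 at 122.8 CPM, against 162.2 to 187.8 CPM, with Scn1a, Scn9a and Cacna2d4. Slc17a7, the vesicular glutamate transporter of cortex and hippocampus, reached 698.9 CPM in library 1, oligodendrocyte markers summed to 2716 CPM there, against 4934 to 8046 CPM in the 18 others, and the part of these markers in the channel values was not tested.

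In library 3, 16 of the 36 genes (44.4%) were above all 18 others, against 24.5% of all genes, and 3 (8.33%) were below, against 22.5%. Those above were 6 of the 7 Cav1 and Cav2 genes, all 3 Cav3 genes, 4 of 8 sodium alpha, 1 of 4 alpha2delta, 1 of 4 calcium beta and 1 of 6 gamma genes, and 0 of 4 sodium beta genes. Across the 36 genes the log2 deviation of this library from the median of the 18 others had a Spearman correlation of 0.538 with exon length. Across 17880 genes it was 0.169. For library 1 the values were −0.0453 across the 36 channel genes and 0.147 across 17880 genes. These correlations run over genes that share a library and are a description. Cortex markers in library 3 summed to 711.7 CPM, within the range of the 18 others, and striatum markers to 224.6 CPM, against 108.6 to 129.3 CPM. Of that striatum sum, 178.4 CPM came from 1 marker, Rgs9. The mean log2 level over the striatum markers was 3.784 in library 3, within the 3.583 to 3.837 of the 18 others. The part of the low depth and of the ribosomal share in these values was not tested.

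**Figure D5:**
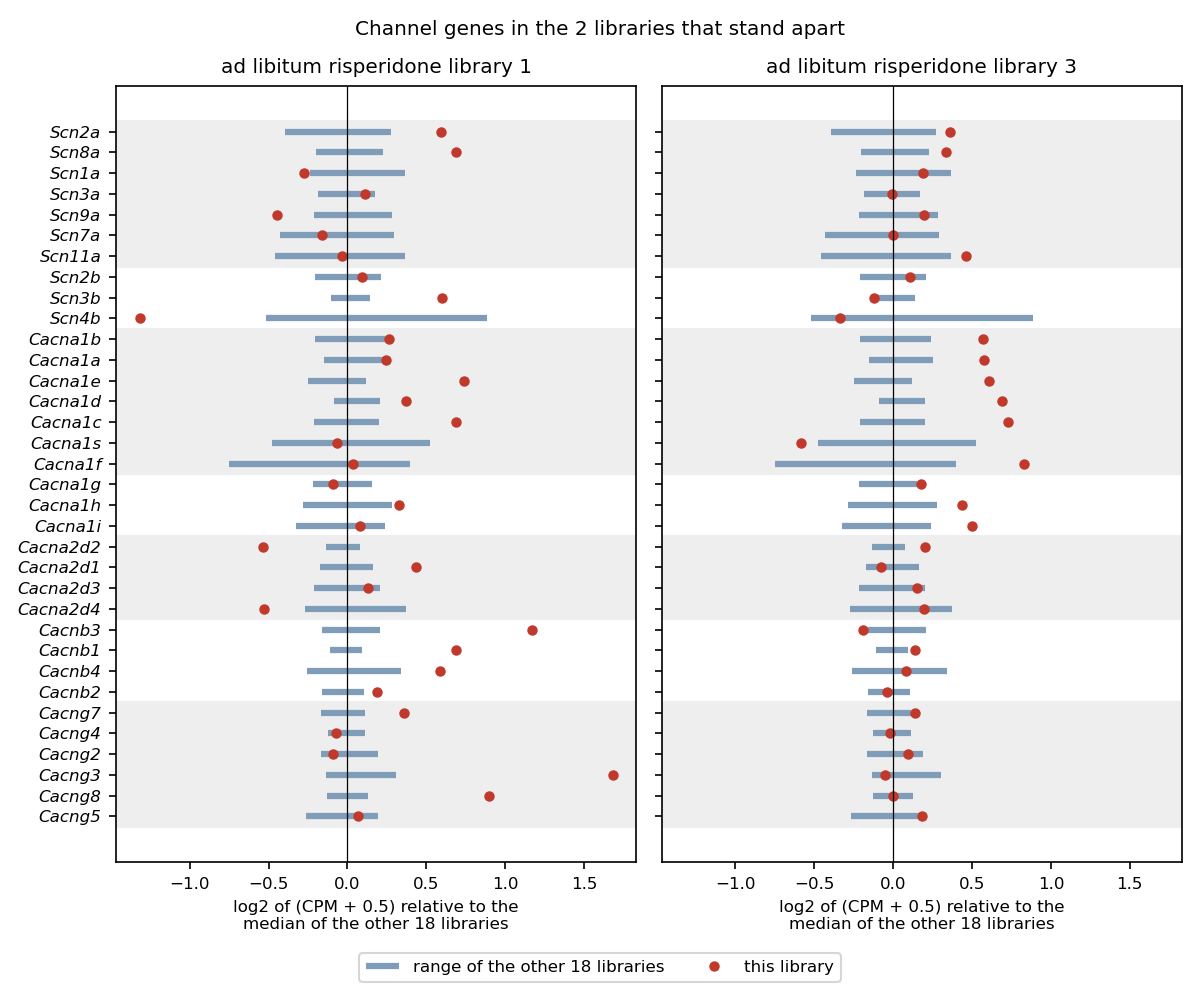
For each of 34 tested channel genes, the point is the log2 of CPM + 0.5 in ad libitum risperidone library 1 (left) or 3 (right) relative to the median of the 18 libraries other than these, and the bar is the range of those 18. In library 1, 16 of these genes lie right of the bar and 5 left of it, and in library 3, 15 lie right, among them 9 of the 10 calcium alpha1 genes, and 3 left.

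Without libraries 1 and 3, ad libitum risperidone against control had 4 channel genes higher at an unadjusted p under 0.05 (11.1%, against 6.04% of all genes), among them Cacnb4, Scn4b and Cacng5, and 1 lower (2.78%, against 6.46%), Cacna1h. Of the 10 calcium alpha1 genes, 2 were then positive and 8 negative, with a median log2 fold change of −0.07, whereas with all libraries 7 were positive and the median was 0.0543. In pair-fed risperidone against control all 10 were negative under both fits. Those fits use the same pair-fed and control counts, so the second could hardly differ in sign and is no separate support. Cacna1h was then at −0.17 (adjusted p = 0.183) in ad libitum risperidone and, as above, at −0.24 in pair-fed risperidone. Both risperidone groups are set against the same control libraries, so these values share their controls. Leaving out libraries 1 and 3 did not make the marker sums alike. Scn4b was highest in ad libitum libraries 6 and 7 and pair-fed library 3, at 27.3, 29.5 and 33.8 CPM. Thalamus markers summed there to 405.9, 420.1 and 415.7 CPM, against 318.1 to 378.6 CPM in control libraries. Ad libitum library 2, at 383.6 CPM of these markers, had 19.98 CPM of Scn4b. The part of these markers in the channel values was not tested.

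Proteins that bind or regulate these channels were followed together with Nalcn, Unc79, Unc80, Fam155a and Tmem28, of the separate sodium leak channel complex. The list holds 26 genes, all of them tested. It was chosen with earlier results of these data known, so counts over it are a description and no separate support. Against control, ad libitum risperidone had 1 of the 26 lower and 0 higher past the adjusted threshold, where 0.0615% of all genes passed. The median log2 fold change over the list was 0.134. At an unadjusted p under 0.05, 7 genes were positive (26.9%, against 7.14% of all genes) and 3 negative (11.5%, against 5.97%). Without libraries 1 and 3 these were 5 genes (19.2%, against 6.04%) and 2 genes (7.69%, against 6.46%), and the median was 0.0444. Rrad, a small GTPase of the RGK family that binds calcium channel beta subunits and lowers calcium current, was the gene that fell. It ran from 9.30 over 14.2 to 16.1 CPM in ad libitum risperidone libraries, against 18.6, 23.1 and 25.3 CPM in control libraries. The groups did not overlap, as was so for 0.33% of all genes. The log2 fold change of Rrad was −0.66 (SE 0.112, adjusted p = 0.0343, edgeR). The call was lost in 8 of 30 other settings, each of which left out 1 library, namely control library 1, 2, 3, 4, 5 or 6 or ad libitum risperidone library 2 or 7, with adjusted p values up to 0.084 and a log2 fold change between −0.70 and −0.55 over the 30. Rrad lies on chromosome 8 from 104628070 to 104631327 on the minus strand of GRCm38, and an antisense gene overlaps 8.94% of its exon length. Markers of other kinds moved with this comparison too. Hypothalamus markers ran from 515.2 over 953.1 to 1326 CPM in ad libitum risperidone, 862.6 over 1237.5 to 1297 CPM in pair-fed risperidone and 1151 over 1279 to 1536 CPM in control libraries, and ependyma markers from 24.4 over 39.8 to 45.4, 38.6 over 46.4 to 53.1 and 42.2 over 48.7 to 51.7 CPM. For both lists, all but 1 of the ad libitum libraries lay below every control library. Skeletal and cardiac muscle markers, from tissues where Rrad is also known, ran from 11.3 over 14.1 to 14.8 CPM in ad libitum risperidone, against 10.1, 11.6 and 11.8 CPM in control libraries. These sums rest on Myh6 and Acta1, with medians of 9.595 and 3.564 CPM in ad libitum risperidone and 7.624 and 3.467 CPM in control. Ckm and Myh1 had medians of 0.141 and 0.112 CPM in ad libitum risperidone and 0.114 and 0.112 CPM in control. The part of these markers in the Rrad values was not tested.

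In pair-fed risperidone Rrad was not lower. It ran from 20.4 over 24.1 to 31.6 CPM in pair-fed libraries. These lay above every ad libitum risperidone library, as was so for 0.263% of all genes. Rrad rose by 0.87 on the log2 scale against ad libitum risperidone (SE 0.115, adjusted p = 0.000369, edgeR), a call kept in all 30 other settings. Against control it stood at 0.21 on the log2 scale (SE 0.112, adjusted p = 0.809). Gem, another RGK GTPase and named after its values were seen, ran from 2.60 over 4.18 to 5.32 CPM in ad libitum risperidone, against 6.00, 6.46 and 8.01 CPM in control libraries, again with no overlap. Its log2 fold change was −0.70 (SE 0.152, adjusted p = 0.0746), and 0.57 (SE 0.158, adjusted p = 0.130) in pair-fed against ad libitum risperidone.

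Pair-fed risperidone against control had 0 of the 26 partner genes past the threshold with edgeR, 0 at an unadjusted p under 0.05 and 0 with DESeq2. Of all genes, 0.486% passed with edgeR, and at an unadjusted p under 0.05 3.06% were higher and 3.6% lower. Without ad libitum libraries 1 and 3, 0 passed the adjusted threshold, while at an unadjusted p under 0.05 Rrad and Fgf11 were positive (7.69%, against 5.2% of all genes) and Nedd4l, Rimbp2 and Stac negative (11.5%, against 6.08%). The smallest p belonged to Stac, an adaptor of L-type channels, at −0.17 (SE 0.0870, adjusted p = 0.769), Rrad as above, and Fgf11, of the intracellular fibroblast growth factor family that binds sodium channels, at 0.18 (SE 0.102, adjusted p = 0.826). Pair-fed against ad libitum risperidone had Rrad as the only partner gene past the threshold with edgeR, where 0.397% of all genes passed. The list had a median log2 fold change of −0.12, or −0.03 without libraries 1 and 3.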

How the data were processed

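The authors deposited raw counts of reads per gene, whole numbers with no normalization, for 20 libraries sequenced as paired reads of 150 bp. STAR, featureCounts and DESeq2, with builds GRCm38 and mm10, are named per the submitters' processing notes. Versions, annotation release and strand setting: not given in the sources used here. Of the gene identifiers 55230 matched GENCODE vM21 and 241 did not, and 0 columns belonged to no sample. Among 57 pairs of libraries of the same group, counts differed by a chi-square of at least 2.64 per degree of freedom, so every library was counted once.

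Counts were fitted with edgeR 4.0.16 in R 4.3.3 (TMM, filterByExpr at a minimum count of 10, quasi-likelihood F test, two-sided, 1 model over 20 libraries, Benjamini-Hochberg over 17893 genes, threshold 0.05, common biological coefficient of variation 11.26%). The fitting was tested on simulated data. CPM and RPKM use TMM-scaled library sizes, and length is the union of annotated exons. SD is between libraries, and intervals are 95%. Alternatives included DESeq2 1.42.0, limma 3.58.1 (voom), other scalings, filters and fits, and leaving out libraries. Named genes were those with the highest control RPKM per class, the 3 smallest p per direction and comparison, and any that passed or did not overlap, with for partner genes those that passed or else the 3 smallest p. Some members are counted but not reported singly here. The members and lists were chosen with earlier results of these data known.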

Additional observations from a re-analysis of the deposited data

Results flagged for a closer look

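In 123 sets of 6 or 7 values (channel genes and class sums by group), 13 had an extreme library farther from its neighbour than Dixon's criterion allows, where chance flags about 1 in 20. Of the 13, 10 were in ad libitum risperidone library 1, 2 in library 3 of that group and 1 in pair-fed risperidone library 1.

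In ad libitum risperidone library 1, CPM was 302.2 for Cacna2d1 (next value 241.9), 162.7 for Cacng7 (139.9), 39.37 for Cacng8 (20.91), 97.36 for Cacng3 (37.19), 213.2 for Scn3b (143.0), 162.4 for Cacnb1 (110.8) and 244.1 for Cacnb3 (124.9). The class sums there were 181.6 RPKM for sodium beta (151.4), 111.9 RPKM for calcium beta (66.81) and 166.3 RPKM for calcium gamma (127.8). The same library had the high cortex, hippocampus and amygdala marker sum of 3929 CPM, whose part in these values was not tested.

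In ad libitum risperidone library 3, Scn11a was at 1.831 CPM (next value 1.2) and the Cav3 sum at 44.45 RPKM (37.69). In pair-fed risperidone library 1, Cacna1e was lowest at 236.1 CPM (next value 271.4).

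Rrad differed between the feeding conditions under the same diet, with a log2 fold change of 0.866 in pair-fed against ad libitum risperidone (adjusted p = 0.000369, edgeR), which is also the difference of the changes of the 2 groups against control.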

How the results depend on the processing

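The number of channel genes called was 0 in each comparison. It was 1 in ad libitum risperidone against control with DESeq2 (Cacnb4), and 1 in pair-fed risperidone against control with only the 2 groups compared in the fit and without ad libitum risperidone libraries 1 and 3 (Cacna1h both times). With any 1 library left out it was 0 in each comparison. Of the partner genes, 1 was called in ad libitum risperidone against control, 2 with DESeq2 and 0 to 2 when 1 library was left out, with 0 when the library left out was control 1, 2, 3, 4, 5 or 6 or ad libitum 2 or 7, and 2 without ad libitum library 4 or pair-fed library 2. Between pair-fed and ad libitum risperidone 1 was called, 2 with DESeq2 and 1 to 2 when 1 library was left out. The log2 fold change of Cacna2d2 in pair-fed against ad libitum risperidone changed sign to −0.00448 without ad libitum library 1 (adjusted p = 0.991), with values up to 0.107 when other libraries were left out. With the longest transcript as length, control class sums were 72.3 RPKM for sodium alpha, 148.4 for sodium beta, 70.75 for Cav1 and Cav2, 41.83 for Cav3, 75.43 for alpha2delta, 87.49 for calcium beta and 127.6 for gamma, as fewer bases are counted. Orders within classes can change with it. Cacnb2 has 13228 bases of exons but 5030 in its longest transcript, against 8963 and 8225 for Cacnb4. At similar CPM, Cacnb2 then lies above Cacnb4. Cacna1a and Cacna1e likewise come closer to Cacna1b, and Cacna1c to Cacna1d. The cause of the other changes was not tested.

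Replicate numbers were no sign of pairing: same-numbered libraries had correlations of −0.158 to 0.304 between their deviations from the group means, and other pairs −0.294 to 0.399. With the replicate number as a block, 0 channel genes were called in each comparison, and 1, 0 and 1 partner genes, as without it. Counts limit what can be said of Scn4a, Scn10a, Cacng1 and Cacng6, which were not tested, and of Cacna1s, Cacna1f and Scn11a.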
